A study of Homo sapiens with 8 samples.

Results

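The libraries described here are the 4 of wild-type cells among 8 in the study, set against each other by batch: batch 1 with 2 libraries (serine/glycine-free medium and complete medium) against batch 2 with 2 libraries of the same media. All are labelled hTERT-RPE1, a human retinal pigment epithelial line made immortal with telomerase, with ATF3 intact. Cells grew for 2 days in complete medium, and the starved cultures then spent 8 h without serine and glycine. The batches are independent experiments, done a week apart per the series text, which does not say whether the same frozen stock or clone was used. The labels name 1 line for both, and whether both batches are in fact that line is not settled by these data; a difference below joins experiment, table and, if they differ, cell line, which cannot be told apart. The other 4 libraries are labelled ATF3 knockout, 2 per batch, and their values stand beside those of wild type where they bear on a gene. The libraries were chosen by their labels, not by a measured value, but with earlier results of these data known. The 2 tables were normalized apart, and with 2 libraries against 2 the smallest two-sided p of an exact permutation test is 0.333, so no test of batch was made. The results are levels, counts by a rule of size, and log2 differences, which for SPARC, THY1 and KRT19 are given with their spread between media.

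A cell line keeps much of the gene activity of the tissue it came from. Retinal pigment epithelium is a pigmented epithelium behind the retina that recycles retinoids, makes melanin and rests on a collagen-rich membrane. In culture it loses pigment and takes up fibroblast features, with vimentin beside simple keratins. HOX genes, set in 4 clusters, record position along the body axis and are kept in culture. Cancer-testis genes, many of them on the X chromosome, are active in germ cells and in some tumour and immortal lines, and are silenced by DNA methylation elsewhere. CDKN2A encodes the cell cycle inhibitor p16INK4a and, from another start, p14ARF, and many immortal lines have lost its activity.

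Levels are in FPKM, which is corrected for length and library size. In each pair of values the serine/glycine-free library comes first and the complete-medium library second. FPKM sums lay between 2747430 and 3118660, and 11979 and 12024 protein-coding genes reached 1 FPKM in batch 1, against 11201 and 11173 in batch 2. Absolute depth is unknown; the steps between low values put relative depth at 1.02 and 1.00 in batch 1 and at 1.27 and 1.27 in batch 2. Over 12390 protein-coding genes at 1 FPKM or more in at least 2 of the 4 libraries, log2(FPKM + 1) correlated at r = 0.969 between the media of batch 1 and r = 0.974 in batch 2. Across batches r lay between 0.759 and 0.774, and genes are not independent replicates. The median absolute log2 difference between batches was 0.637 in serine/glycine-free and 0.656 in complete medium, against 0.242 between media in batch 1 and 0.226 in batch 2. The median signed difference between batches was 0.22 on the log2 scale, higher in batch 1. Rescaling the libraries to equal medians moved this shift to 0.06, so a difference near 0.22 is that of a typical gene.

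ATF3, the gene of the genotype label and a stress-induced transcription factor (ENSG00000162772, hg19 chromosome 1, 212738676 to 212794119, a locus of 2 listed genes), had 6.46 and 3.47 FPKM in batch 1 against 18.0 and 3.65 in batch 2. In the libraries labelled knockout it had 4.45 and 3.38 in batch 1 against 57.3 and 20.8 in batch 2. Its mRNA was thus not absent under the knockout label, and in batch 2 it was higher there than in wild type in both media. The label of the line was checked against genes of retinal pigment epithelium. RPE65, the retinoid isomerase of that epithelium, had 0.102 and 0.316 FPKM in batch 1 and 0.251 and 0.695 in batch 2. RLBP1, which carries its retinoid, and OTX2, a transcription factor of that lineage, were listed at 0 in all 4 libraries. The pigment gene TYR had 0.0555 and 0.113 in batch 1 and was listed at 0 in both libraries of batch 2. PMEL, a melanosome protein, had 0.522 and 0.732 in batch 1 against 0 and 0.0696 in batch 2. BEST1, a chloride channel of that epithelium, had 1.37 and 0.567 in batch 1 against 0.595 and 0.291 in batch 2. Of these 6 genes BEST1 alone reached 1 FPKM, in the serine/glycine-free library of batch 1. Other genes of that epithelium were expressed. Over the list of 28 described below, 11 and 10 reached 1 FPKM in batch 1 against 3 and 5 in batch 2. TERT, the telomerase gene by which the line was made immortal, was listed at 0 in both libraries of batch 1 and had 0.599 and 0.160 FPKM in batch 2. The sources used here do not say how a transgene copy would have been counted.

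SPARC, a secreted matricellular glycoprotein made by fibroblasts and many cultured cells (ENSG00000113140, hg19 chromosome 5, 151040657 to 151104343, a locus of 3 listed genes), had 343 and 343 FPKM in batch 1 against 1.66 and 0.620 in batch 2. The groups were far apart: SPARC lay at percentiles 99.2 and 99.2 of protein-coding genes in batch 1, against 45.3 and 39 in batch 2. Its log2 difference was 7.37 (SD 0.51 between the 2 media). THY1, the surface glycoprotein CD90 of fibroblasts (ENSG00000154096, hg19 chromosome 11, 119252488 to 119397374, a locus of 6 listed genes), had 42.8 and 66.0 FPKM in batch 1 against 0.298 and 0 in batch 2. Its log2 difference was 5.57 (SD 0.70). KRT19, the smallest type I keratin of simple epithelia (ENSG00000171345, hg19 chromosome 17, 39679869 to 39684560, with a locus of its own), went the other way, with 0.143 and 0.281 FPKM in batch 1 against 216 and 321 in batch 2. Its log2 difference was -7.77 (SD 0.28), and it lay at percentiles 25.1 and 28.8 in batch 1 against 98.7 and 99.2 in batch 2. CDKN2A (ENSG00000147889, hg19 chromosome 9, 21802542 to 22121096, a locus of 12 listed genes) was listed at 0 in both libraries of batch 1 and had 74.6 and 62.0 FPKM in batch 2. These are bulk cultures, in which fewer cells with a transcript and less of it per cell cannot be told apart. For each of these 4 genes the libraries labelled knockout sat with the wild-type libraries of their own batch. SPARC had 403 and 429 FPKM in the batch 1 libraries labelled knockout against 0.0903 and 0.450 in those of batch 2, and KRT19 had 0.741 and 0 against 306 and 375.

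**Figure D1:**
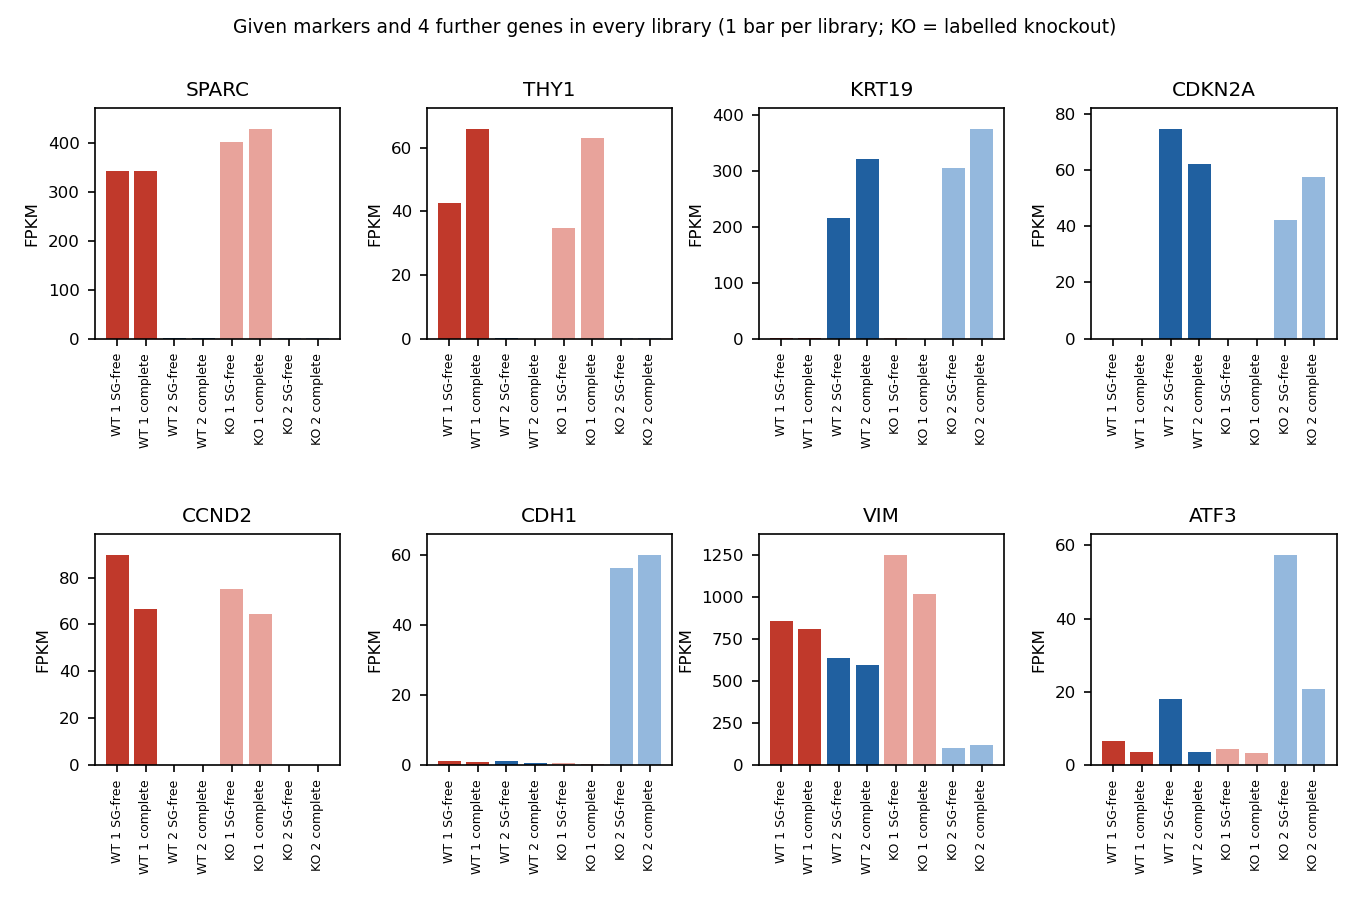
FPKM (vertical axes, each from 0) of the 4 given markers and of CCND2, CDH1, VIM and ATF3 in each of the 8 libraries, 1 bar per library, batch 1 in red and batch 2 in blue, with libraries labelled knockout (KO) in paler shades; SG-free is serine/glycine-free medium. SPARC, THY1 and CCND2 stand high in batch 1 alone and KRT19 and CDKN2A in batch 2 alone, while wild-type VIM lies between 598 and 856 FPKM in all 4 libraries.

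The promoters of the pair of markers held by the RefSeq promoter table follow, since 1 of them was active in batch 1 and the other in batch 2. Each is 300 bases on the minus strand of GRCh38.p14, from 250 bases before the start site to 50 after it, 5′ to 3′, with every CG, the site of DNA methylation, in capitals. Coordinates are chr5:151686866-151687165 for SPARC, chr9:21995275-21995574 for the p14ARF start of CDKN2A and chr9:21974808-21975107 for its p16INK4a start.
SPARC: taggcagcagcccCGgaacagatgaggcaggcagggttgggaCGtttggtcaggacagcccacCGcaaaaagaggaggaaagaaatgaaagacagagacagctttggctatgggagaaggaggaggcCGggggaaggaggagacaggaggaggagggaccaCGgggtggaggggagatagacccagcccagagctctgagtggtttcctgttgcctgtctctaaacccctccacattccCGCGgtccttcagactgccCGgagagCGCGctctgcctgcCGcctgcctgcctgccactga
CDKN2A, p14ARF start: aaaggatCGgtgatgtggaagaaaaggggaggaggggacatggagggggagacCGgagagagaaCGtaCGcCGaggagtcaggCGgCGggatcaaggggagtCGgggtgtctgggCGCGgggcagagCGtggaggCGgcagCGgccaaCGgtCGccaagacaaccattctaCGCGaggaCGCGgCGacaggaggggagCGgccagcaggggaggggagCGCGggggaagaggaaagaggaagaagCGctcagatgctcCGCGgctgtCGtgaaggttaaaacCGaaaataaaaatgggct
CDKN2A, p16INK4a start: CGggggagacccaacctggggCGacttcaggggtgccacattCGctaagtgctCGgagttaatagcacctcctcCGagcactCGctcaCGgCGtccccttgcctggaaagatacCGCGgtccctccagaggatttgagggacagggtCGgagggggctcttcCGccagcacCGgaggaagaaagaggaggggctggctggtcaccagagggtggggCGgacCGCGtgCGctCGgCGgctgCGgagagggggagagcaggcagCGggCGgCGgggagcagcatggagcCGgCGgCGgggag
The motif counted was CG, which reads the same on both strands, and 96.0% of the 35116 promoters in the table hold at least 1. SPARC has 11, a number reached by 54.7% of them; the p14ARF start has 28, reached by 26.2%, and the p16INK4a start has 26, reached by 30.1%. These letters are from the reference genome, and methylation was not measured. FPKM per gene does not tell the CDKN2A starts apart. Around CDKN2A the neighbours on chromosome 9 did not all follow it. CDKN2B, which encodes the inhibitor p15INK4b and shares the locus, had 0.295 and 1.42 FPKM in batch 1 against 32.8 and 17.7 in batch 2. MTAP, an enzyme of methionine salvage in the same locus, had 40.7 and 30.9 in batch 1 against 27.1 and 27.1 in batch 2. KLHL9 on one side had 9.01 and 11.1 in batch 1 against 7.69 and 7.94 in batch 2, and DMRTA1 on the other had 3.52 and 7.43 against 1.62 and 1.40.

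By the rule of size (10 FPKM or more in both libraries of one batch and under 0.5 in both of the other), 83 of 19254 protein-coding genes were high in batch 1 (0.431%) and 59 were high in batch 2 (0.306%). Over all 57884 listed genes the counts were 126 (0.218%) and 86 (0.149%). Of the 83 genes, 14 were listed at 0 in both libraries of batch 2, and of the 59, 17 were listed at 0 in both libraries of batch 1. A shared locus, in which reads of overlapping genes may have been split, held 51 of the 83 and 27 of the 59. Over all 57884 listed genes it held 33180, but only 19254 of these 57884 are protein-coding. The share among protein-coding genes alone is not given here. Both labelled genotypes met the rule at 54 of the 83 (0.28% of all protein-coding genes) and 32 of the 59 (0.166%), and the libraries labelled knockout taken alone at 96 (0.499%) and 103 (0.535%) protein-coding genes. Among the 83 and the 59, the difference between libraries labelled knockout had the same sign in both media at 83 of 83 and 57 of 59. Those libraries stand in the same 2 tables and batches as wild type, and the share over all genes is not given here. Just inside the limits lay MFAP5, a microfibril glycoprotein, with 10.2 and 10.2 FPKM in batch 1 against 0 and 0 in batch 2, and GPNMB with 23.8 and 22.3 against 0.499 and 0.260. Just outside lay BMP7, a secreted morphogen, with 9.86 and 11 in batch 1 against 0.0375 and 0.405 in batch 2. On the batch 2 side FOXL1 lay inside, listed at 0 in batch 1 against 11.3 and 10.2 in batch 2, and HEPHL1 outside, with 0.195 and 0.0445 against 9.91 and 9.78.

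**Figure D2:**
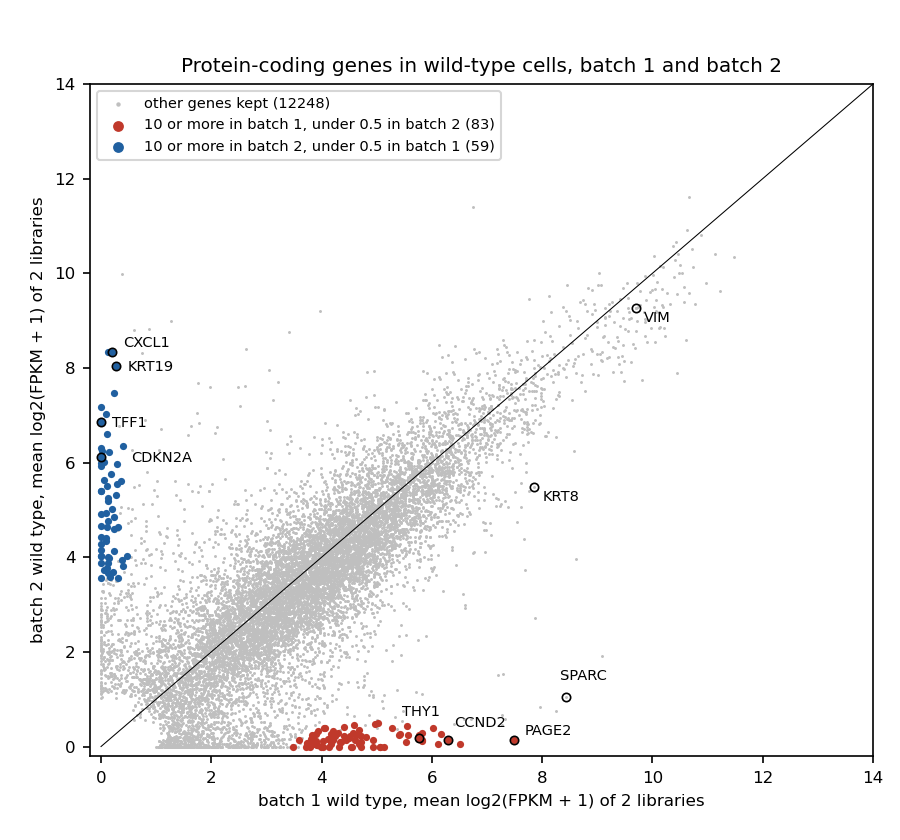
Mean log2(FPKM + 1) of the 2 wild-type libraries of batch 1 (horizontal) and of batch 2 (vertical) for 12390 protein-coding genes, 1 point per gene, with the line of equal values. The 83 genes high in batch 1 lie along the horizontal axis and the 59 high in batch 2 along the vertical one; SPARC misses the rule because it had 1.66 and 0.620 FPKM in batch 2.

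Ranked by the lower value in batch 1, PAGE2, a cancer-testis gene on the X chromosome, led with 186 and 171 FPKM in batch 1 against 0.217 and 0 in batch 2. AP1M2, the clathrin adaptor subunit of epithelial cells, had 77.9 and 104 against 0.0796 and 0. In the libraries labelled knockout AP1M2 had 69.2 and 105 in batch 1 and 30.2 and 26.6 in batch 2, so it was not near 0 in batch 2 there. CCND2, which encodes cyclin D2, had 89.5 and 66.6 against 0.0612 and 0.141. MFAP2, of the elastic microfibrils, had 66.5 and 61.3 against 0.409 and 0.208. NDN, the imprinted gene of necdin, had 47.3 and 60.3 against 0.167 and 0.0836, and the secreted DKK3 had 45.2 and 48.0 against 0.289 and 0.0799. Matrix genes among the 83 were MMP2, a gelatinase, with 27.9 and 26.2 in batch 1 against 0.118 and 0.198 in batch 2, and COL3A1, a fibrillar collagen, with 17.4 and 17.4 against 0.203 and 0. BEX1 had 61.5 and 49.6 against 0.484 and 0, but 19 and 16.9 in the batch 2 libraries labelled knockout. TUBA3C, an alpha-tubulin, had 53.9 and 85.9 against 0 and 0.0922.

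On the batch 2 side, HIST1H1D, a linker histone, had 0.186 and 0 FPKM in batch 1 against 344 and 300 in batch 2, and the core histone genes HIST2H3D and HIST3H2A were listed at 0 in batch 1 against 88.5 and 150 and 92.3 and 65.5 in batch 2. Most mRNAs of such histones have no poly(A) tail, and the sources used here do not say how RNA was selected. CXCL1, a neutrophil chemokine, had 0.154 and 0.156 in batch 1 against 540 and 191 in batch 2, IL1B had 0.287 and 0.0850 against 241 and 131, and CSF3 was listed at 0 against 27.1 and 15.6. TFF1, a secreted trefoil peptide of mucous epithelia, was listed at 0 in batch 1 against 113 and 118 in batch 2, and TFF2 had 0 and 0.476 against 40.1 and 51.7. SPDEF, a transcription factor of prostate and goblet cells, had 0.145 and 0 against 15.9 and 25.6, and FOXA1, a pioneer factor of endodermal, breast and prostate epithelium, had 0.0665 and 0.132 against 12.2 and 18.0. PRAC1, expressed in prostate and distal gut, was listed at 0 in batch 1 against 40.7 and 42.2 in batch 2. PKP1, a desmosomal plakophilin, had 0.0307 and 0 against 77.6 and 72.3. IGFBP3, a secreted carrier of insulin-like growth factors, was listed at 0 in batch 1 against 71.0 and 55.7 in batch 2, and 19.8 and 18.1 in the batch 2 libraries labelled knockout. TWIST1, a transcription factor of mesenchyme, had 0.153 and 0 in batch 1 against 12.6 and 12.8 in batch 2. GBX2 and ANPEP, high in batch 2 wild type at 26.0 and 22.7 and at 29.3 and 34.1, had 0.906 and 0.371 and 0.741 and 0.5 in the batch 2 libraries labelled knockout.

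Some of these genes are neighbours. Runs of at least 3 neighbouring protein-coding genes at 5 FPKM or more in both libraries of one batch and under 1 in both of the other, passing over genes below 5 FPKM in all 4, numbered 5 among 10010 genes; this rule was added after the values were seen. One run, on hg19 chromosome 17 from 40265126 to 40575535, held KAT2A, RAB5C, STAT5B, STAT3 and PTRF, all high in batch 1. STAT3, the transcription factor of interleukin-6 signalling, had 28.2 and 34.2 FPKM in batch 1 against 0.129 and 0.506 in batch 2. PTRF, which encodes cavin-1, a coat protein of caveolae, had 146 and 174 against 0.688 and 0.333. RAB5C, a GTPase of early endosomes, had 42.7 and 49.4 against 0.293 and 0.403, and KAT2A, a histone acetyltransferase in the same locus, had 8.97 and 11.6 against 0.0481 and 0. STAT5B had 7.30 and 7.41 against 0.0647 and 0, and GHDC, which lies between RAB5C and STAT5B, had 4.78 and 4.12 against 0 and 0. The batch 2 libraries labelled knockout were likewise at or below 0.0723 FPKM for the 5 genes of the run, where the batch 1 libraries labelled knockout had 31.7 and 35.2 for STAT3. ATP6V0A1, next after PTRF, was also lower in batch 2 wild type, with 3.53 and 3.12 in batch 1 against 0.367 and 0.281 in batch 2. In the libraries labelled knockout ATP6V0A1 was low in both batches, with 0.0343 and 1.03 in batch 1 against 0.0842 and 0.312 in batch 2. Genes farther out on both sides were expressed in both batches: DNAJC7 had 46.8 and 36.7 in batch 1 against 23.1 and 20.9 in batch 2, and COASY had 15.7 and 13.6 against 14.1 and 10.1. Genome sequence was not measured, and loss of the segment and silence of its genes cannot be told apart from FPKM.

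**Figure D3:**
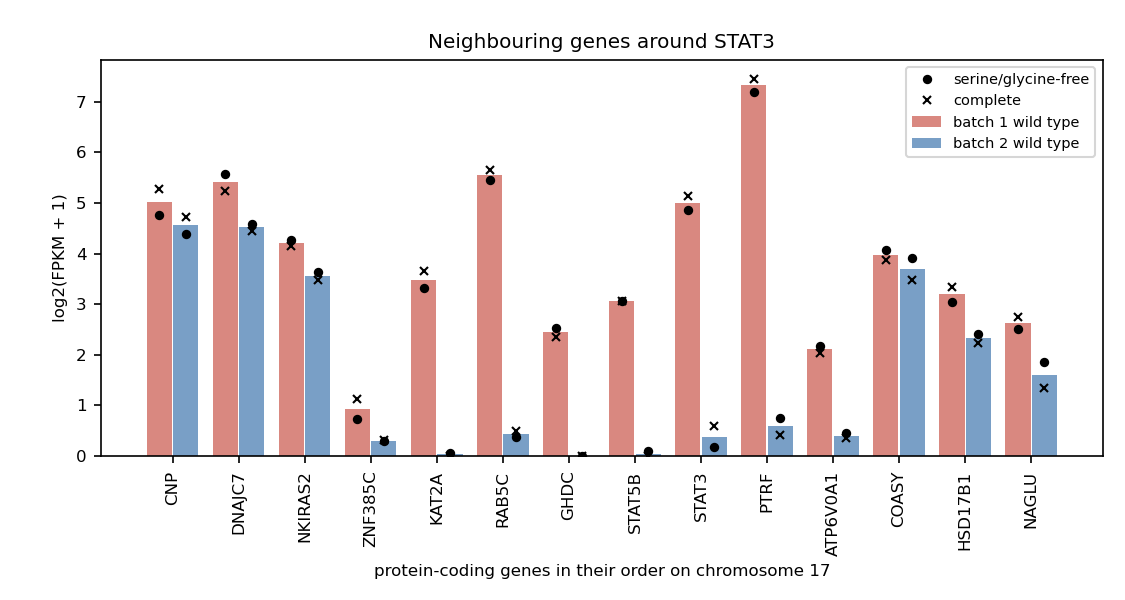
Level as log2(FPKM + 1) of protein-coding genes from CNP to NAGLU in their order along chromosome 17 in wild-type cells, with bars for the mean of 2 libraries and marks for each medium; genes under 1 FPKM in all 4 libraries are left out, and genes that share a locus are in alphabetical order. From KAT2A to PTRF batch 2 stays under 1 FPKM, while batch 1 has 174 FPKM for PTRF, and genes at both ends are expressed in both batches.

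A smaller group of neighbours was HEXA, the alpha subunit of lysosomal hexosaminidase, and PARP6, which share a locus of 7 listed genes on chromosome 15 (72533522 to 72671129). HEXA had 59.2 and 48.1 FPKM in batch 1 against 0.275 and 0.0973 in batch 2, and PARP6 had 28.7 and 22.2 against 0.158 and 0. Next to them PKM, pyruvate kinase, had 707 and 775 in batch 1 against 792 and 985 in batch 2. The run on chromosome 4 (74702214 to 74965010), high in batch 2, was the chemokine cluster of CXCL6, CXCL1, CXCL5, CXCL3 and CXCL2. CXCL6 had 0.125 and 0 in batch 1 against 146 and 114 in batch 2, CXCL5 had 0.149 and 0 against 70.4 and 28, and CXCL2 had 0.539 and 0 against 55.4 and 9.17. IL8 (CXCL8), which lies beside them, had 2.89 and 0.475 against 1355 and 191. In batch 2 the serine/glycine-free library was the higher one for each of these chemokines. The other runs, with 3 genes each, were high in batch 1 and lay in the HOXD cluster, on chromosome 22 (ADRBK2, MYO18B and ASPHD2) and on the X chromosome (MAGEA4, MAGEA6 and MAGEA12).

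The cancer-testis list set the batches apart by its summed level. Its 37 members summed to 806 and 840 FPKM in batch 1 against 9.15 and 16.4 in batch 2, and 11 and 11 members reached 1 FPKM in batch 1 against 2 and 2 in batch 2. MAGEA4 had 304 and 300 FPKM in batch 1 against 0.607 and 0.739 in batch 2, MAGEA1 had 67.6 and 74.1 against 0.327 and 0.0813, and MAGEB2 had 44.5 and 46.1 against 0.153 and 0. PRAME, on chromosome 22, had 74.2 and 117 against 5.29 and 12.9. Members that met the rule of size numbered 6 of 37 high in batch 1 (16.2%, against 0.431% of all protein-coding genes) and 0 of 37 high in batch 2 (against 0.306%). The list was drawn up with earlier results of these data known. Reads of near-identical MAGEA copies may have been split between them, and MAGEA12 had 17.3 and 15.5 FPKM in the batch 2 libraries labelled knockout. The X chromosome held 11 of the 83 genes high in batch 1, which is 7.38% of its 149 protein-coding genes at 10 FPKM or more there, against 1.37% over all chromosomes. It held 0 of the 59 high in batch 2, which are 1.05% of the genes at 10 FPKM or more in that batch. Beside the cancer-testis genes these were BEX1, ARMCX2, TMSB15A and TRO.

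Simple epithelial genes did not all lean to batch 2. The 40 members of that list summed to 451 and 523 FPKM in batch 1 against 807 and 875 in batch 2, and 17 and 17 members reached 1 FPKM in batch 1 against 25 and 24 in batch 2. KRT7, a type II simple keratin, had 6.17 and 9.59 FPKM in batch 1 against 248 and 101 in batch 2, and SPINT2, a membrane inhibitor of serine proteases, had 0.854 and 0.620 against 119 and 118. CLDN4, of tight junctions, had 6.24 and 15.3 against 55.5 and 135. The keratin KRT8, the usual partner of KRT18 in simple epithelia, went the other way, with 213 and 249 in batch 1 against 34.5 and 55 in batch 2. KRT17, a keratin of basal cells, had 172 and 137 in batch 1 against 0.867 and 0.348 in batch 2. CDH1, the adherens junction cadherin of most epithelia, had 1.15 and 0.737 in batch 1 and 1.23 and 0.541 in batch 2, and in the libraries labelled knockout 0.618 and 0.201 in batch 1 and 56.2 and 60.0 in batch 2. In the libraries labelled knockout, 14 and 16 members of the list reached 1 FPKM in batch 1 against 39 and 39 in batch 2, where they summed to 2580 and 2534 FPKM. Whether a clone, a genotype or a mix of cells goes with these values was not tested.

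Mesenchymal genes were split as well. Members of that list at 1 FPKM or more numbered 27 and 26 of 34 in batch 1 against 18 and 19 in batch 2. VIM, the intermediate filament of mesenchyme, was among the highest genes of both in wild type, with 856 and 809 FPKM in batch 1 against 638 and 598 in batch 2. The wild-type list summed to 1600 and 1543 FPKM in batch 1 against 1588 and 1462 in batch 2. In the libraries labelled knockout it summed to 2187 and 1974 in batch 1 against 496 and 515 in batch 2. VIM, a member, was thus below 598 FPKM in both batch 2 libraries labelled knockout. Higher in batch 1 were PDGFRB, a platelet-derived growth factor receptor (5.83 and 7.81 FPKM against 0.199 and 0 in batch 2), and TAGLN, an actin-binding protein (24.4 and 18.4 against 1.66 and 1.5). PRRX1, a transcription factor of limb mesenchyme, had 8.05 and 3.77 in batch 1 and was listed at 0 in batch 2. Higher in batch 2 were CDH11, a mesenchymal cadherin, with 4.26 and 5.29 in batch 1 against 131 and 160 in batch 2, and COL6A2, with 72.3 and 65.7 against 386 and 335. In the libraries labelled knockout CDH11 had 8.49 and 11.6 in batch 1 against 29.7 and 59.0 in batch 2. COL6A2 in those libraries had 99.7 and 81.1 in batch 1 against 144 and 143 in batch 2. Among the 40 collagens, 22 and 22 reached 1 FPKM in batch 1 against 15 and 16 in batch 2. The basement membrane chain COL4A2 had 77.4 and 53.5 in batch 1 against 20.5 and 7.86 in batch 2. Among matrix genes TGFBI had 210 and 200 in batch 1 against 23.9 and 6.14 in batch 2. IGFBP4 had 4.56 and 4.58 in batch 1 against 190 and 194 in batch 2, and the laminin chain LAMA3 had 1.80 and 1.28 against 50.1 and 46.4.

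Of 28 retinal pigment epithelium genes, 11 and 10 reached 1 FPKM in batch 1 against 3 and 5 in batch 2. Over all 19254 protein-coding genes the counts were 11979 and 12024 against 11201 and 11173. In the libraries labelled knockout 11 and 11 of the 28 reached it in batch 1 against 7 and 8 in batch 2. Collagens and HOX genes also had more such members in batch 1, and simple epithelial genes had more in batch 2. The genes of this list that differed most are also made by other cells. GPNMB, a glycoprotein of melanosomes and lysosomes, met the rule of size. EFEMP1, a matrix protein, had 23 and 29.9 FPKM in batch 1 against 2.42 and 0.752 in batch 2. In the libraries labelled knockout EFEMP1 was near equal, with 11.9 and 12.1 in batch 1 against 10.5 and 9.30 in batch 2. SERPINF1, the pigment epithelium-derived factor, had 8.26 and 5.04 against 0.780 and 2.28, and MITF, the pigment cell transcription factor, had 5.03 and 4.89 against 2.70 and 1.96. RDH10, a retinol dehydrogenase, was higher in batch 2, with 5.80 and 8.08 in batch 1 against 14.4 and 22.1 in batch 2. Among eye field genes ALDH1A3, a retinoic acid synthase of the ventral optic cup, had 1.1 and 0.345 in batch 1 against 440 and 231 in batch 2. PAX6, the eye field transcription factor, had 0.0197 and 0.227 in batch 1 against 12.8 and 5.20 in batch 2. In the batch 2 libraries labelled knockout PAX6 had 9.71 and 9.94.

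HOX genes differed between the batches gene by gene. Of 38 HOX genes, 22 and 25 reached 1 FPKM in batch 1 against 13 and 14 in batch 2. HOXD10 had 9.72 and 14.9 FPKM in batch 1 and HOXD11 had 9.16 and 12.8, and both were listed at 0 in all batch 2 libraries, as was HOXD9. HOXC9 had 4.45 and 8.73 in batch 1 against 0.170 and 0.446 in batch 2, and HOXC11 had 5.50 and 9.05 against 0.106 and 0.452. In the HOXB cluster HOXB7 had 10.1 and 14.3 against 0.728 and 0, while HOXB3 had 6.61 and 7.40 in batch 1 against 7.67 and 5.41 in batch 2. HOXB13, the most posterior gene of that cluster, had 2.11 and 3.23 in batch 1 against 12.7 and 28.3 in batch 2. HOXA genes were present in both: HOXA10 had 12.5 and 10.9 in batch 1 against 10.7 and 14.9 in batch 2, and HOXA9 had 8.37 and 9.23 against 23.5 and 21.4.

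**Figure D4:**
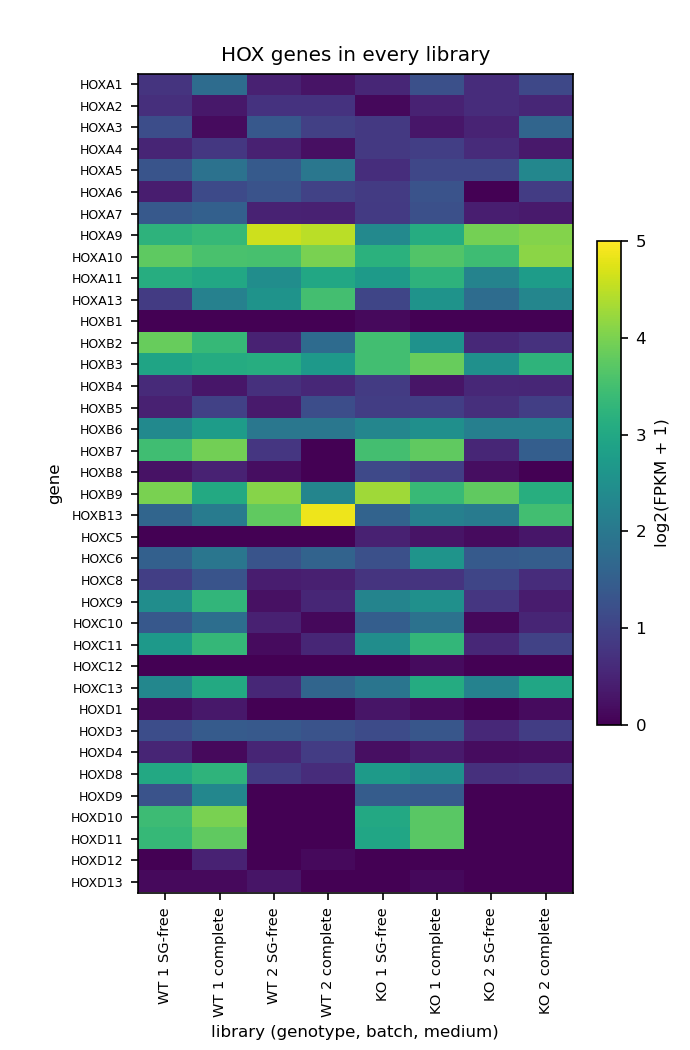
Level of 38 HOX genes (rows, by cluster) in the 8 libraries (columns) as log2(FPKM + 1) on a colour scale from 0 to 5. HOXD10 and HOXD11 are bright in the batch 1 columns of both labelled genotypes and at 0 in the batch 2 columns, HOXB13 is brightest in batch 2 wild type, and HOXA9 and HOXA10 lie above 2 in all 8.

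Of 104 further lineage transcription factors, 48 and 48 reached 1 FPKM in batch 1 against 33 and 34 in batch 2. NKX2-5, a cardiac factor, met the rule in batch 1, with 12.1 and 16.1 FPKM against 0 and 0.181 in batch 2. GBX2, of the midbrain and hindbrain boundary, met it in batch 2. MEIS3, a HOX cofactor, had 23.4 and 28.9 in batch 1 against 2.54 and 0.599 in batch 2, and SIM2 had 2.06 and 1.89 against 55.7 and 38.1. LIN28B, a repressor of let-7 maturation, had 6.24 and 5.11 in batch 1 against 0.0390 and 0 in batch 2, and OLIG2, of the oligodendrocyte lineage, had 6.39 and 4.02 and was listed at 0 in batch 2. LCP1, an actin bundler of blood and carcinoma cells, had 4.94 and 4.16 in batch 1 against 38 and 29.8 in batch 2. Imprinted genes differed in both directions: PEG3 had 13.2 and 16.2 in batch 1 against 1.15 and 0.947 in batch 2, and PEG10 had 0.416 and 0.656 against 19.3 and 38.7. Among 22 genes of G1 control, CCND1, which encodes cyclin D1, had 44.7 and 77.5 in batch 1 against 213 and 265 in batch 2, the reverse of CCND2, and CCNE1 had 28.6 and 42.5 against 3.18 and 3.08. Over the 32 lists together, 17 of 702 genes met the rule in batch 1 (2.42%, against 0.431% of all protein-coding genes) and 10 in batch 2 (1.42%, against 0.306%). Of protein-coding genes at 10 FPKM or more in both libraries of the batch, 1.37% met it in batch 1 and 1.05% in batch 2. The lists were drawn up with earlier results of these data known and include the given markers, so these shares are description alone.

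The median log2 differences of the lists are given as a description, since a gene could pass the filter of 1 FPKM through 1 batch alone. The median was 4.59 for the 12 cancer-testis genes kept, 2.4 for 5 HOXD genes, 1.58 for 5 HOXC genes, 1.53 for 10 retinal pigment epithelium genes and 1.30 for 23 collagens, against 0.22 over all protein-coding genes kept. It was -3.09 for 7 liver and gut genes, -1.56 for 8 breast and prostate genes and -1.24 for 28 simple epithelial genes. The size of these medians depends on the settings. Over the 13 alternatives run for each, the median ran from 0.15 to 7.24 for cancer-testis genes, 0.24 to 4.64 for HOXD, 1.00 to 2.86 for HOXC, 0.28 to 2.90 for retinal pigment epithelium and 0.17 to 1.97 for collagens. It ran from -4.21 to 0 for liver and gut, -3.38 to 0 for breast and prostate and -3.59 to -0.047 for simple epithelium. In all 8 lists the value nearest 0 is the one with no filter, which counts every listed member. A log2 difference of 1 or more in both media, 15.6% of the 12390 protein-coding genes kept, was seen in 11 of the 12 cancer-testis genes, 12 of the 23 collagens, 10 of 27 mesenchymal genes, 4 of the 28 simple epithelial genes, 2 of the 7 liver and gut genes and 1 of the 8 breast and prostate genes. A difference of -1 or less in both media, 8.79% of all, was seen in 14 of the 28 simple epithelial genes, 5 of the 7 liver and gut genes, 5 of the 8 breast and prostate genes, 6 of the 23 collagens, 6 of the 27 mesenchymal genes and 0 of the 12 cancer-testis genes.

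Broad chromosome segments also differed. By whole chromosome the median log2 difference, less that of all genes, ran between -0.45 (chromosomes 20 and 21) and 0.58 (chromosome 22, 296 genes). Chromosomes 20, 21 and 22 lay at -0.64, -0.12 and 0.59 in the libraries labelled knockout. In windows of 20 Mb with at least 20 genes, 151 in all, the highest was the start of chromosome 12 (1 to 20000000, 123 genes), at 1.29 above the median of all genes, and 68.3% of its genes were higher by 1 or more in both media, against 15.6% of all. In the libraries labelled knockout the same window lay 1.21 above the median of all genes. CCND2 and the glucose transporter SLC2A3 lie there, and SLC2A3 had 40.2 and 35.2 FPKM in batch 1 against 0.291 and 0.347 in batch 2. Without the genes that met the rule of size the window's median was 1.48, against 1.51 with them. On chromosome 10 the window from 60000001 to 80000000 lay at -0.84 and the next, to 100000000, at 0.68. The windows were chosen after the data were seen, and the number of gene copies was not measured.

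**Figure D5:**
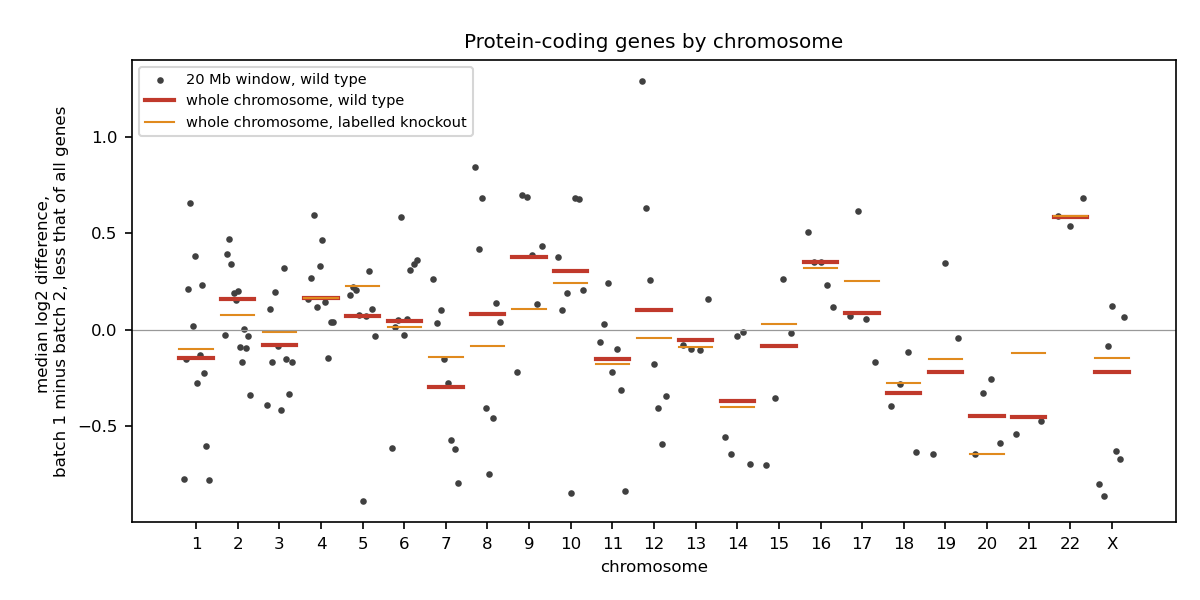
Median log2 difference, batch 1 minus batch 2, of protein-coding genes, less the median of all genes (vertical axis), for each chromosome (horizontal axis): lines for whole chromosomes in wild type (red) and in libraries labelled knockout (orange), points for 20 Mb windows in wild type from the start of the chromosome at the left. The first window of chromosome 12 stands at 1.29, and chromosome 22 lies at 0.58 as a whole.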

How the data were processed

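RNA sequencing of 4 wild-type libraries was compared between 2 batches, with 4 libraries labelled knockout beside them. Values are FPKM, which the authors deposited as 1 table for each batch, normalized apart, with 57884 genes each. The submitters' processing notes name hg19 as the build and TopHat, Cufflinks and Cuffdiff as tools, with no versions. Library preparation followed Illumina protocols, per the labels' protocols. Cufflinks locus starts were made 1-based: 32 of 37 mitochondrial genes then matched GENCODE 29 starts. Ensembl IDs gave the gene type in GENCODE 29 for 90.4% of genes. Of the genes, 33180 share a locus with another, which can split reads, and an exact 0 can be a failed estimate.

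Genes were counted by a rule of size (10 FPKM or more in both libraries of one batch, under 0.5 in both of the other). Differences are batch 1 minus batch 2 of log2(FPKM + 1), taken within each medium and averaged, so they understate changes of low genes, over genes at 1 FPKM or more in 2 libraries. Percentiles are within a library over protein-coding genes. Nothing was tested, because a test would set table against table. Replicates are separate experiments, 1 library per medium and batch.

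The members and the 32 gene lists (713 genes, 702 matched by a symbol of 1 row) were chosen with earlier results of these data known. The rule for named genes takes the given markers and ATF3, the 15 leading genes per direction by their lower high value, and list members that meet the rule of size, differ most or are highest, 165 genes in all. Not all of these are reported here, and genes outside it, among them the line's check genes, chemokines, chromosome neighbours and several keratins, HOX and matrix genes, were chosen after their values were seen. Alternatives varied thresholds, pseudocount, filter, scaling, shared loci, medium, libraries and genotype label. The counting was tested on simulated data. Python 3.11.15, pandas 2.3.3 and numpy 2.4.6 were used, and promoters are RefSeq's on GRCh38.p14 (SPARC and CDKN2A matched; THY1 and KRT19 did not).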

Additional observations from a re-analysis of the deposited data

Results flagged for a closer look

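Among the 165 genes that the naming rule gives, 6 were found that changed sign between the labelled genotypes. Their difference between batches had one sign in both media of wild type and the other sign in both media of the libraries labelled knockout. The share of all genes that did so is not given here, and the contrast between genotypes was not tested. On the log2 scale, batch 1 minus batch 2, the protease inhibitor TIMP1 had 0.85 in wild type and -1.71 in the libraries labelled knockout. ERBB3, a neuregulin receptor, had 1.05 and -1.30 in the same order, and NES, the neural filament nestin, had -0.23 and 2.45. XBP1, of the unfolded protein response, had 0.48 and -0.72. MAP2 had 1.34 and -0.16. NAPSA had 0.94 and -0.37, but it did not pass the filter of 1 FPKM in 2 wild-type libraries. Over all protein-coding genes kept, the median difference was 0.22 in wild type and 0.19 in the libraries labelled knockout. The values -0.23 for NES and -0.16 for MAP2 were close to these in size. Groups of 2 libraries are too small for a check on single libraries that stand apart.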

How the results depend on the processing

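No paired analysis was possible because the replicate number is the batch, which is what was compared, and no value comes from a test; libraries were matched by medium instead. Counts below are those high in batch 1, then in batch 2. Over all genes (126 and 86) they became 302 and 144 with 5 FPKM as the upper limit, 52 and 51 with 20 FPKM, 61 and 46 with 0.1 FPKM as the lower limit, 52 and 40 without shared loci, and 80 and 39 over all 4 libraries of each batch. Over protein-coding genes (83 and 59) the same settings gave 206 and 105, 37 and 34, 28 and 23, 32 and 32, and 54 and 32. Within-library percentiles gave 79 and 45 for all and protein-coding genes high in batch 1. The libraries labelled knockout alone gave 132 and 103 for all and protein-coding genes high in batch 2. Leaving out 1 library gave 149 to 215 and 108 to 168 over all genes; the first was 203 and 215 without the serine/glycine-free and complete libraries of batch 1, and the second 132, 168 and 158 without the serine/glycine-free library of batch 1 and the serine/glycine-free and complete libraries of batch 2. List genes meeting the rule (17 and 10) became 30 and 17 at 5 FPKM, 5 and 5 at 0.1 FPKM, 10 and 5 without shared loci, and 11 and 5 over all libraries; percentiles gave 9 in batch 1, 20 FPKM gave 5 in batch 2 and the libraries labelled knockout gave 27 in batch 2. With a pseudocount of 0.1 the log2 differences were 8.25 (SPARC), 8.06 (THY1) and -9.76 (KRT19), and with 0.5 they were 6.41 (THY1) and -8.54 (KRT19); in the libraries labelled knockout SPARC had 8.37. Percentile differences there were 67.6 for SPARC, -76.1 for KRT19 and -82.9 for CDKN2A. The highest minus the lowest chromosome median was 1.03; it was 1.19 and 1.13 with pseudocounts of 0.1 and 0.5, 0.51 with no filter, 1.11 with a filter of 5 FPKM, 1.05 and 1.1 with upper-quartile and median rescaling, 1.06 and 1.07 in serine/glycine-free and complete medium alone, 1.23 in the libraries labelled knockout and 1.05 to 1.11 without single libraries. List medians near 0 changed sign for mesenchymal (-0.18) and other lineage factors (-0.77) with the filter of 5 FPKM, stratified epithelium (0.012) and kidney (0.031) with no filter, imprinted genes (-0.0013) with median rescaling and surface antigens (-0.13) in the libraries labelled knockout; the cause was not tested. The signs of SPARC, THY1 and KRT19 held in all 13 alternatives run for each. Absolute depth is unknown, so the error of levels and percentiles under 1 FPKM is unknown too.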
